A study of Homo sapiens with 12 samples.

Results

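The mRNAs described here are those of spliceosome components and hnRNP proteins, chosen by gene symbol alone. Symbols beginning with SNRP, HNRNP, PRPF or U2AF, or with SRSF, SF3A, SF3B or LSM and a digit, were taken, and HNRNPA2B1, HNRNPC and SNRPC were left out. The choice gave 75 of the 9529 genes in the deposited table. Of these, 28 encode core snRNP proteins: the Sm ring (7), the LSM ring of U6 (5), the U1- and U2-specific proteins (3), the SF3 complex (9) and the PRPF proteins of the tri-snRNP (4). Another 28 encode regulators of splice site choice, of which 10 are SR proteins and 18 are hnRNP proteins. The other 19 hold 8 further PRPF genes, 5 further LSM genes, 4 U2AF genes and 2 hnRNP pseudogenes, HNRNPA1P10 and HNRNPA3P1.

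Poly(A) RNA came from NOMO-1, an established human acute myeloid leukaemia cell line with monocytic features. Cells carried a non-targeting hairpin, shNS, or a hairpin against ALKBH5, shALKBH5, delivered by lentivirus, and were collected after 0, 8 or 12 h in actinomycin D, which blocks transcription. The 6 groups hold 2 libraries each: 2 replicates of shNS, or 1 library of each of the 2 ALKBH5 hairpins, which appear in the table as line D and line E. All groups share the cell line and the lentiviral hairpin vector, and untransduced cells were not analysed here. The letters could not be tied to the numbered hairpins from the labels, and were kept as names of the lines. The labels do not say whether replicates came from separate cultures. A p-value here thus reflects how these libraries differ, and that spread may be technical. In the knockdown groups it also holds the difference between the 2 lines. The main tests pooled the spread of all groups.

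The spliceosome removes introns from pre-mRNA. Its snRNPs are small nuclear RNAs wrapped by a ring of Sm proteins or, for U6, of LSM proteins, and SF3 proteins hold the U2 snRNP at the branch point while U2AF reads the 3′ end of the intron. SR proteins bind exons and mostly favour the use of nearby splice sites, whereas hnRNP proteins bind introns and exons and often oppose it. Many SR and hnRNP genes tune their own level through alternative exons that send the mRNA to nonsense-mediated decay. ALKBH5 removes N6-methyladenosine (m6A) from RNA, a mark that writers place within short motifs of which GGACT is a common form, and which reader proteins can couple to decay. Several splicing factors, among them SF3B1, SRSF2, U2AF1 and PRPF8, are recurrently mutated in myeloid neoplasms.

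Sequence windows of the SR mRNAs with the widest spread in percent left come first, since over the SR mRNAs percent left ran with a motif, as with 3′ UTR length, in the direction opposite to all genes. The motif is ATTTA, the core of AU-rich elements, searched on the sense strand in the 3′ UTR of 1 GENCODE 29 transcript per gene, overlapping matches included. Each window holds 12 bases on either side, with the motif in capitals and positions counted from the first base of the transcript. SRSF4 holds 1 such match, SRSF3 holds 9, SRSF11 holds 10 and SRSF6 holds 12, in 3′ UTRs of 667, 3611, 2247 and 3184 bases.
SRSF4 (2109 to 2113): tcgatgtatgccATTTAgtgaaagtgcta
SRSF3 (2195 to 2199): cctaaacaaattATTTAtttccacctttt
SRSF6 (2485 to 2489): aaaagttactttATTTAaaagcatttatt
SRSF11 (2763 to 2767): aaccgtatttgtATTTAtttacgctactg
The next windows are all 4 matches of GGACT in the SRSF9 transcript, shown because SRSF9 was higher in both knockdown lines. All lie before the 3′ UTR, and a match is only a run of letters, not a mapped m6A site.
SRSF9 (23 to 27): ttctctttaagaGGACTccttttgcctcc
SRSF9 (268 to 272): cgtgcgcgagaaGGACTtggaggacctgt
SRSF9 (447 to 451): tggagttccccaGGACTtatggaggtcgg
SRSF9 (533 to 537): gttcttgtttcaGGACTtcctccgtcagg

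The targeted gene matched the labels. ALKBH5 stood at 84.3 and 78.6 in the shNS replicates at 0 h, against 25.4 and 21.2 in lines D and E, and it was lower in both lines at 8 and 12 h as well. Gene totals fell from 826000 to 953211 at 0 h to 143765 to 193639 at 12 h, while 46 ERCC spike-ins kept a median of 29.9 to 33.1. Values over time are therefore read per unit of spike-in. Of 8 monocytic markers, 5 were in the table, with a summed signal of 392 and 385 in shNS and 693 and 685 in lines D and E at 0 h. Their part in the results below was not tested. Of the T cell, erythroid and epithelial marker lists no gene was in the table. In bulk libraries, fewer cells expressing a gene and less of its RNA per cell cannot be told apart.

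Percent left is the signal at 8 or 12 h as a percent of that same replicate's or line's 0 h value. As a set, the splicing mRNAs lay slightly above the other genes at 8 h and slightly below them at 12 h in shNS. Their median percent left at 8 h was 45.6 and 44.9 in the shNS replicates, against 42.2 and 41.1 for all genes. At 12 h it was 11.3 and 12.0, against 11.9 and 12.9. Of the 75 members, 48 and 44 were above the all-gene median at 8 h, and 35 and 33 at 12 h. The members' share of the total gene signal was 1.23 to 1.59% at 0 h, 1.09 to 1.26% at 8 h and 0.928 to 0.981% at 12 h.

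Core snRNP mRNAs and regulators had similar medians. At 8 h the 28 core mRNAs kept a median of 51.1% and 47.1% in the shNS replicates, and the 28 regulators kept 46.4% and 46.1%. At 12 h the medians were 12.0% and 12.3% for the core and 11.7% and 12.2% for the regulators. The spread within each group was much wider than the gap between them. In the mean of the shNS replicates at 8 h, core mRNAs ran from 12.5% to 94.6% and regulators from 14.8% to 72.2%. Within the core, the mRNAs of the Sm and LSM rings lay above the others by median.

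**Figure D1:**
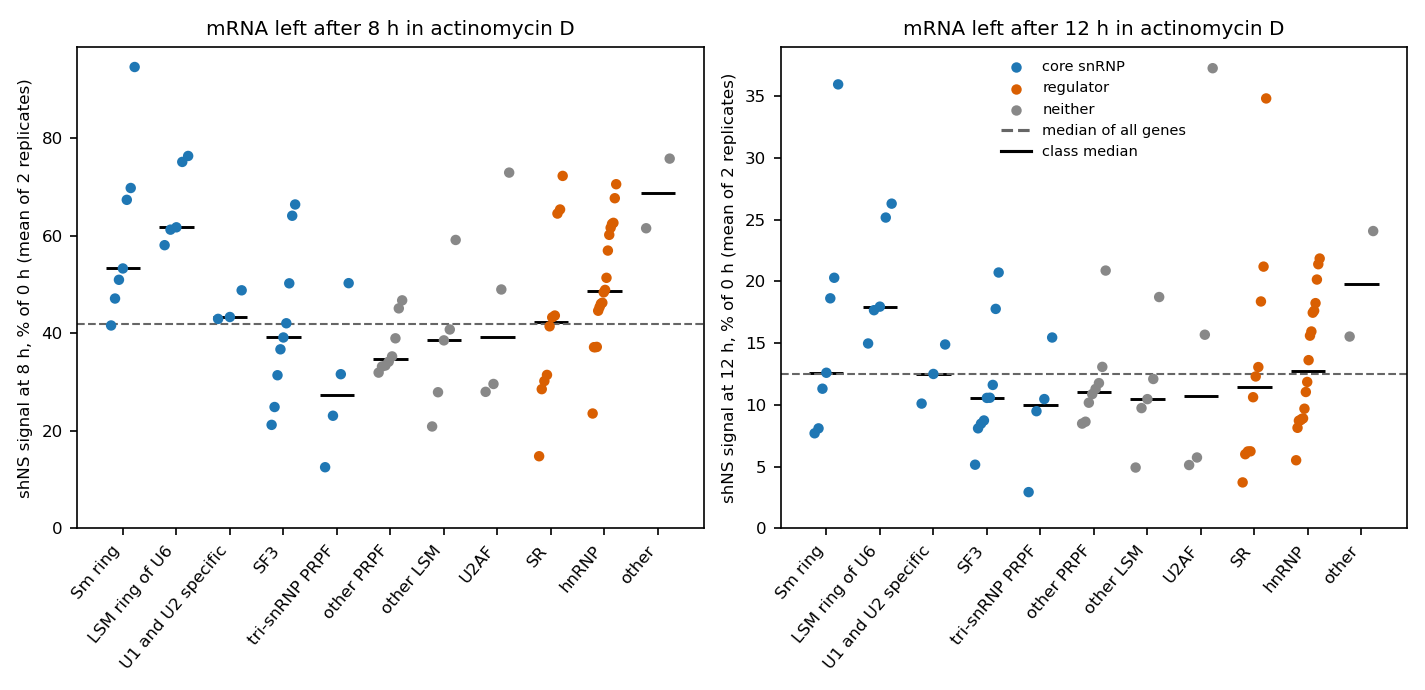
Percent of the 0 h signal left at 8 h (left panel) and 12 h (right panel), mean of the 2 shNS replicates, 1 point per mRNA, by class. Black bars are class medians and the dashed line is the median of all genes. All 5 LSM ring mRNAs lie above the dashed line at both times, and the SR class spreads from 14.8% to 72.2% at 8 h.

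The Sm ring binds the U1, U2, U4 and U5 snRNAs. Its 7 mRNAs kept a median of 54.8% and 51.7% in shNS at 8 h. SNRPD2 (chromosome 19, 45687454 to 45692569, minus strand, GRCh38) was highest of all 75 members at 8 h. Its signal in the first shNS replicate was 521, 527 and 208 at 0, 8 and 12 h, and in the second it was 518, 456 and 165. These are 101% and 88.0% left at 8 h and 40.0% and 31.9% at 12 h, which put its mean at percentiles 98.6 and 96.9 of all genes. SNRPF kept 72.0% and 67.6% at 8 h, and SNRPB, the gene of the SmB protein, kept 69.2% and 65.5%. SNRPD1, which sits beside SNRPD2 in the ring, was lowest of the class in the mean of the replicates, with 43.5% and 39.7% at 8 h and 7.1% and 8.2% at 12 h. In the mean of the replicates, the mRNAs of this 1 ring ran from 41.6% to 94.6%.

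The LSM ring holds the 3′ end of U6 snRNA, and a ring that shares most of its subunits acts in cytoplasmic mRNA decay. Its 5 mRNAs (LSM3 to LSM7) kept a median of 62.1% and 64.3% in shNS at 8 h and 16.3% and 19.7% at 12 h. LSM7, with 76.3% and 76.4%, and LSM4, with 78.5% and 71.7%, were the highest at 8 h, and LSM4 was highest at 12 h with 26.5% and 26.0%. LSM6 was lowest in the mean of the replicates, at 59.0% and 57.1% and then 14.7% and 15.2%. In both shNS replicates and at both times, all 5 therefore lay above the medians of all genes. LSM1, which replaces LSM8 in the cytoplasmic ring, was counted among the further LSM genes and kept 62.3% and 55.9% at 8 h.

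The SF3 and tri-snRNP mRNAs kept less. The 9 SF3 mRNAs had medians of 39.7% and 38.6% at 8 h and 10.5% and 10.1% at 12 h. Within SF3, the small branch point protein gene SF3B6 kept 68.7% and 64.1% at 8 h, and SF3B5 kept 64.0% and 64.2%. SF3B1, the scaffold around the branch point helix, had signals of 525 and 478 at 0 h, 228 and 194 at 8 h and 55.0 and 50.9 at 12 h, or 43.4% and 40.7% and then 10.5% and 10.7%. SF3B4 was lowest of the class with 22.3% and 20.1% at 8 h and 5.1% and 5.2% at 12 h. At 8 h SF3B4 was lowest in both replicates, whereas the highest was SF3B6 in the first and SF3B5 in the second.

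The 4 tri-snRNP mRNAs had medians of 29.1% and 25.6% at 8 h. PRPF8, the protein at the catalytic centre, kept 50.9% and 49.6% at 8 h and 15.6% and 15.3% at 12 h. PRPF6 kept 33.4% and 29.8% at 8 h, and PRPF3 kept 24.7% and 21.4%. PRPF4, a U4/U6 protein, was lowest of all 75 members, with 13.5% and 11.6% at 8 h and 2.7% and 3.1% at 12 h, and its mean lay at percentiles 3.3 and 1.2 of all genes. Its signal at 12 h was only 0.85 and 0.89, near the pseudocount. The U1- and U2-specific mRNAs lay above both classes by median: SNRPA kept 51.8% and 45.8% at 8 h, SNRPA1 44.5% and 41.4%, and SNRPB2 43.2% and 43.5%.

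Joining the Sm and LSM rings, a grouping made after the values were seen, gave 12 mRNAs with medians of 60.6% and 62.8% at 8 h. The other 16 core mRNAs had 41.4% and 39.6%, close to the medians of all genes. At 12 h the rings kept 15.9% and 18.8%, and the other core mRNAs 10.5% and 10.4%.

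SR mRNAs were widely dispersed. Their medians, 43.4% and 40.4% at 8 h and 11.0% and 11.6% at 12 h, were near those of all genes, but single members lay at both ends. SRSF6, which acts through exonic enhancers, kept 74.2% and 70.3% at 8 h and 21.0% and 21.4% at 12 h. SRSF2, another enhancer-binding SR protein, kept 66.1% and 63.0% and then 19.2% and 17.6%. SRSF11 kept 63.9% and 66.8% at 8 h and, at 12 h, still 33.1% and 36.5%, the highest of the SR class. At the other end stood SRSF4, the SR mRNA with the lowest percent left in the class. SRSF4 had signals of 139 and 129 at 0 h, 21.7 and 18.0 at 8 h and 4.84 and 5.10 at 12 h, or 15.6% and 14.0% and then 3.5% and 3.9%. SRSF3, among the smallest SR proteins, kept 28% and 29% at 8 h, and SRSF1, the founding member of the family, kept 29.3% and 31.1%. At 12 h SRSF3, SRSF1 and SRSF9 were all between 5.5% and 7.0% in the shNS replicates. SRSF5, SRSF7 and SRSF10 were close to the median gene at 8 h, between 38.2% and 44.6%. For each SR mRNA named as high or low, the replicates lay on the same side of the all-gene median at both times.

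**Figure D2:**
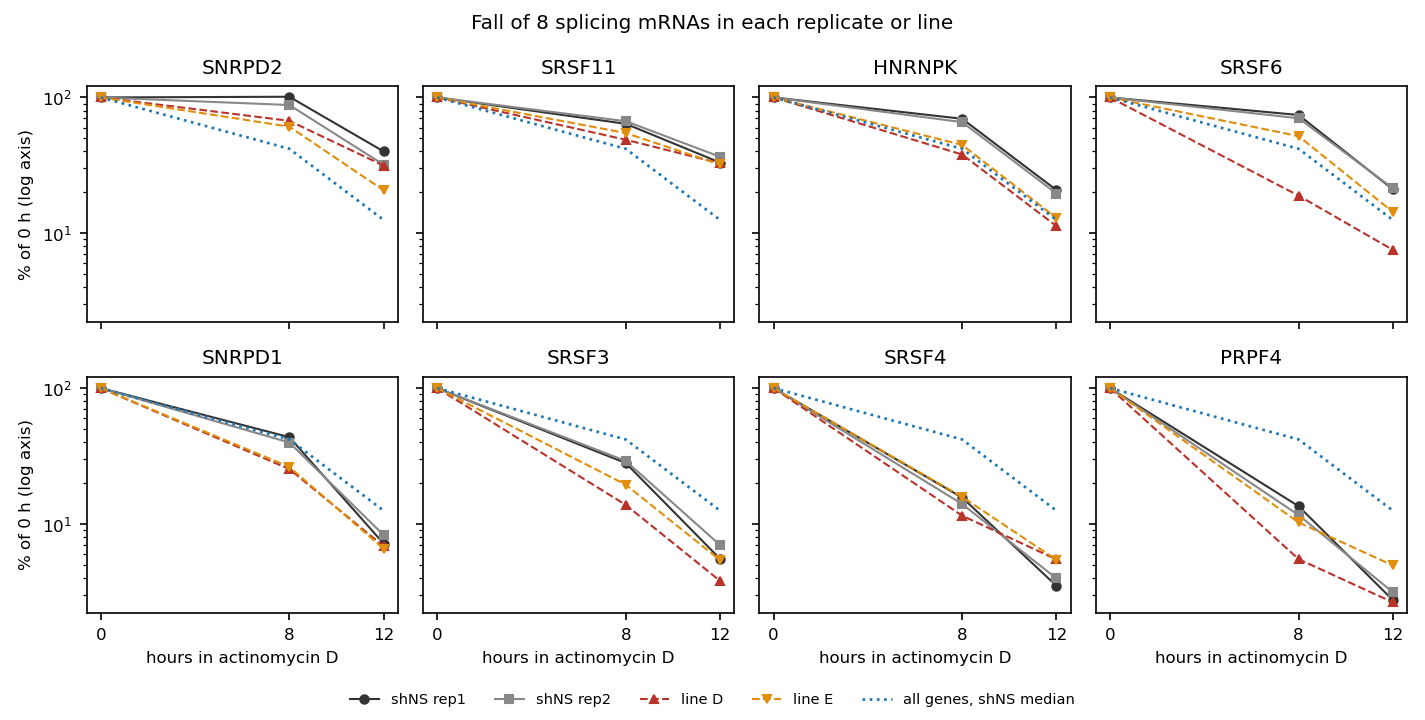
Percent of the 0 h signal (log axis) at 0, 8 and 12 h in actinomycin D for 8 splicing mRNAs, in the shNS replicates (solid) and the knockdown lines (dashed), with the shNS median of all genes dotted. SNRPD2 and SRSF11 stay above the dotted line at 8 and 12 h, and SRSF3, SRSF4 and PRPF4 run below it in all 4 series.

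The hnRNP mRNAs kept somewhat more than SR mRNAs by median, 49.6% and 47.6% at 8 h and 12.2% and 13.3% at 12 h. HNRNPA1, an abundant protein that represses splice sites, kept 75.7% and 65.4% at 8 h, the highest of the class in the mean of the replicates, and 23.3% and 19.4% at 12 h. HNRNPK, which binds C-rich RNA, had signals of 406 and 394 at 0 h and 282 and 259 at 8 h, which is 69.6% and 65.7%, and kept 20.7% and 19.5% at 12 h. HNRNPH3, HNRNPH1 and HNRNPUL1 kept 54.7% to 63.7% at 8 h. HNRNPF, a relative of HNRNPH1, was lowest with 23.9% and 23.1% at 8 h and 5.3% and 5.7% at 12 h. HNRNPA0, HNRNPDL and HNRNPU were also below the all-gene median, at 35.8% to 38.4%. Of the 18 mRNAs, 14 lay above the all-gene median at 8 h in the mean of the replicates and 9 at 12 h. HNRNPA1 shares sequence with HNRNPA1L2 and the pseudogene HNRNPA1P10, as HNRNPA3 does with HNRNPA3P1, and the transcript HNRNPUL2-BSCL2 joins neighbouring genes, so the split of reads among these is uncertain.

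Among the remaining members, the further PRPF mRNAs had medians of 34.6% and 35.1% at 8 h, with PRPF19, an E3 ligase of the activated spliceosome, highest at 48.6% and 44.9% and PRPF38B lowest in the mean of the replicates, at 30.2% and 33.7%. LSM12 was lowest of the further LSM mRNAs with 21.9% and 19.8%. U2AF1, the small subunit that reads the AG at the intron end, kept 31.8% and 27.4% at 8 h and 5.7% and 5.8% at 12 h. U2AF2, its large partner, kept 49.9% and 48.0% at 8 h. U2AF1L5 is a near-identical copy of U2AF1, so their values are uncertain as separate genes. U2AF1L4 kept 84.8% and 61.0%, on a low signal of 9.93 and 11.9 at 0 h, and its replicates differed more than those of the other U2AF mRNAs.

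The tests of change in shNS were made after centring each library on its median gene, with limma on log2(signal + 1) and Benjamini-Hochberg adjustment over 9529 genes. By 8 h, 25 of the 75 members were called higher relative to the median gene and 6 lower, against 36% and 17% of all genes. By 12 h the counts were 18 and 15, against 38.7% and 15.8%. The centring sets the library's median level, not the median change, to 0, and the median change of all genes was then 0.30 at 8 h and 0.32 at 12 h. With median-of-ratios scaling the counts were 15 higher and 7 lower at 8 h, against 18.9% and 23.6%, and 16 and 17 at 12 h, against 24.6% and 27%. Read against these shares, lower calls by 8 h were fewer than in all genes under both scalings, and higher calls by 12 h were fewer under the first. The other counts were near the background.

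By class at 8 h, the core had 12 higher and 3 lower calls and the regulators 9 and 2, of 28 each. The shares of all genes were 36% and 17%. At 12 h the core had 6 and 3 and the regulators 6 and 8, against 38.7% and 15.8% of all genes. With median-of-ratios scaling the core had 8 and 3 at 8 h and 7 and 4 at 12 h. The regulators then had 5 and 2, and 6 and 8. All-gene shares under this scaling were 18.9% and 23.6% at 8 h and 24.6% and 27% at 12 h. The Sm and LSM rings together are 12 mRNAs grouped after their percent left was seen in these same libraries. They had 8 higher and 0 lower calls at 8 h and 5 and 0 at 12 h after centring on the median gene. With the other scaling they had 7 and 0, and then 6 and 0. As the grouping followed these values, the counts describe the group and are no separate support for it. Lower calls at 12 h among the regulators were split evenly between SR (4 of 10) and hnRNP (4 of 18) in number. No test compared the classes themselves, since genes are not replicates.

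Transcript length and exon number ran with percent left in different directions in the core and the regulators. Over the 28 core mRNAs, Spearman's rho between transcript length and mean shNS percent left at 8 h was -0.55, and over their number of exons it was -0.65. For the 28 regulators the values were 0.14 and 0.40, the first made up of 0.49 over the SR mRNAs and -0.28 over the hnRNP mRNAs, and for the 9144 genes found in GENCODE 29 they were -0.35 and -0.06. The ring proteins are encoded by short mRNAs with few exons: the SNRPD2 transcript has 901 bases in 3 exons and that of LSM7 529 bases in 4, against 7445 bases in 42 exons for PRPF8. PRPF8 nonetheless kept more than PRPF4, which has 14 exons. These are correlations across genes of the same libraries and describe only them.

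For the ATTTA motif, whose windows are printed above, rho was taken between the number of matches in the 3′ UTR and percent left at 8 h. It was 0.68 over the 10 SR mRNAs, -0.30 over the 18 hnRNP mRNAs and -0.28 over 8766 genes with a 3′ UTR. Over the 28 regulators together it was -0.02, and over 73 members -0.08. SRSF6 and SRSF11, with 12 and 10 matches, were among the SR mRNAs with most left, and SRSF4, with 1, had least. SRSF3 went against this with 9 matches and a low percent left. Per kilobase of 3′ UTR the SR value was 0.53. The count goes with 3′ UTR length, for which rho was 0.42 over the SR mRNAs and -0.25 over all genes. For GC content it was -0.55 and 0.24. Matches were present in 23 of 28 regulators, 13 of 28 core mRNAs and 68.2% of all genes, whose 3′ UTRs differ in length. At least 1 transcript annotated for nonsense-mediated decay was listed for 10 of 10 SR genes, 21 of 28 regulators and 11 of 28 core genes, against 45.2% of all genes. The table gives 1 value per gene, so these isoforms were not measured apart. Percent left ran weakly with the level at 0 h, with rho of 0.31 over the 75 members and 0.11 over all genes.

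Before actinomycin D, few members were called between the knockdown lines and shNS, a share near that of all genes. HNRNPAB, an RNA-binding protein also known as CBF-A, was the 1 member called higher at 0 h, and 0 were called lower, against 1.33% and 0.136% of all genes. The shNS replicates read 143 and 141, line D read 354 and line E read 236, so the groups did not overlap. The fitted difference was 1.02 (SE 0.22, limma adjusted p = 0.0461). At an unadjusted p under 0.05, 16 members were higher and 0 lower, against 1958 and 157 of all 9529 genes, so the higher count was near the background. The HNRNPAB call was lost in 12 of 21 other settings, including median-of-ratios scaling (0.76, adjusted p = 0.149) and the fit that drops the 0 h library of line D (0.73, adjusted p = 0.354).

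Most members were nominally higher in the knockdown lines at 0 h. Both lines lay above both shNS replicates for 47 of 75 members, 19 of them core and 18 regulators, against 46.4% of all genes, and below for 2, HNRNPA1 and LSM11, against 6.88%. The median fitted difference was 0.32 for the core and 0.32 for the regulators, against 0.23 for all genes. With median-of-ratios scaling these medians were 0.07, 0.06 and -0.01, so most of the difference was common to all genes. Core and regulators had like medians at 0 h under either scaling. SRSF2 had the largest difference of SRSF2, SF3B1, U2AF1 and PRPF8: 136 and 129 in the shNS replicates, against 298 (line D) and 162 (line E) (0.73, SE 0.30, limma adjusted p = 0.188). SF3B1 stood at 525 and 478 in shNS and 579 and 539 in the lines (0.16, SE 0.20, adjusted p = 0.682 in limma). U2AF1 (0.31) and PRPF8 (0.21) were not called either. SRSF2 was high mainly in line D. With median-of-ratios scaling the fitted differences of SF3B1 and PRPF8 were -0.10 and -0.05.

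SRSF9 was the 1 member called when each replicate or line was averaged over the times. SRSF9 (chromosome 12, 120461668 to 120469793, minus strand) encodes an SR protein with a short arginine-serine tail. Its 0 h signal was 111 and 106 in shNS, against 211 for line D and 169.7 for line E. At 8 h it was 34.7 and 33.5 against 53.4 and 55.0, and at 12 h 6.60 and 6.40 against 15.0 and 14.5. Both lines were above both shNS replicates at each time. Over the line means the difference was 0.84 (SE 0.23, limma adjusted p = 0.0292), and at 0 h alone it was 0.80 (SE 0.18, adjusted p = 0.0544). For this comparison 1 member was called higher and 0 lower, against 2.72% and 2.42% of all genes, and 4 and 8 members had an unadjusted p under 0.05, against 1036 and 941 of all 9529 genes. The call was lost in 8 of 23 other settings. Among them was median-of-ratios scaling (0.85, limma adjusted p = 0.143), under which 0 of all 9529 genes were called. It was also lost without shNS replicate 1 at 8 h (limma adjusted p = 0.149) and with the 0 h library of line D dropped (limma adjusted p = 0.102).

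In percent left, the arms overlapped for SRSF9 at 8 h, with 31.3% and 31.6% in shNS and 25.4% and 32.4% in lines D and E. At 12 h it kept 6.0% and 6.0% in shNS, below the 7.1% and 8.5% of the lines. The motif GGACT occurs 4 times in its transcript, 0 times in that of HNRNPAB and at least once in 66 of 75 members and 90.4% of all genes.

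HNRNPAB missed the threshold over the line means, with 0.78 (SE 0.24, limma adjusted p = 0.0507), although its groups did not overlap at any time: 67.6 and 63.7 against 98.6 and 82.9 at 8 h, and 11.9 and 11.2 against 23.7 and 19.8 at 12 h. HNRNPA1 was the 1 member whose knockdown libraries lay below shNS at all 3 times. It stood at 826 and 840 in shNS and 691 and 783 in the lines at 0 h, at 625 and 549 against 331 and 336 at 8 h, and at 193 and 163 against 111 and 92.2 at 12 h. The difference over the line means was -0.60 (SE 0.22, limma adjusted p = 0.110), which was not called. No overlap at all 3 times was seen for 2 members above shNS and 1 below, against 9.15% and 5.24% of all genes.

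**Figure D3:**
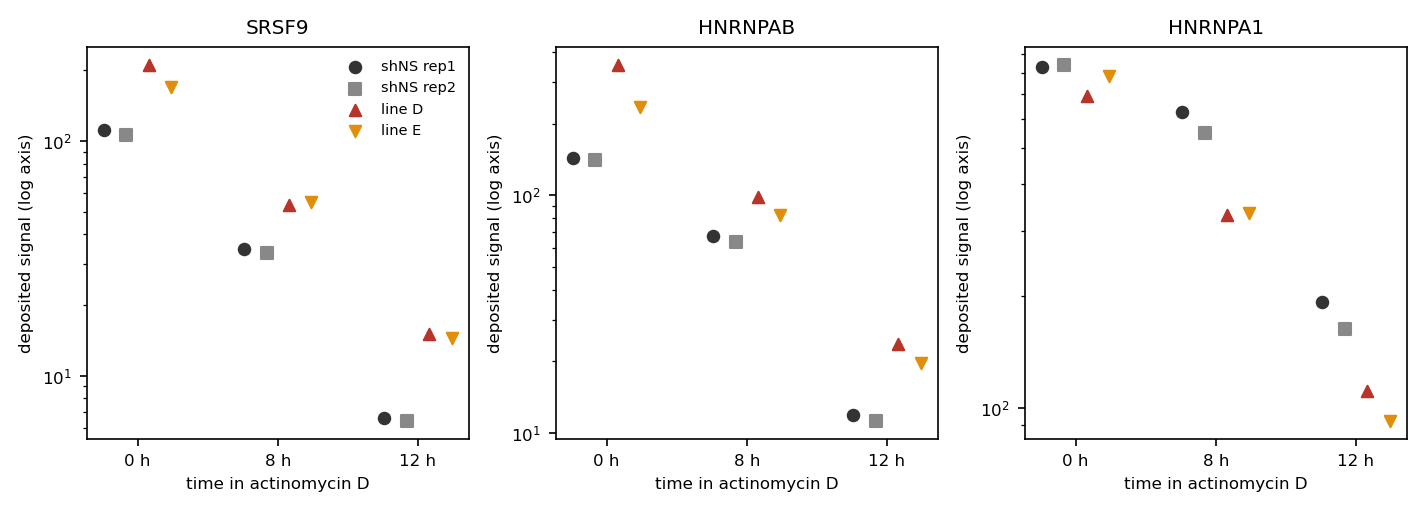
Deposited signal (log axis) of SRSF9, HNRNPAB and HNRNPA1 by time in actinomycin D, 1 point per library. The knockdown lines (triangles) are above both shNS replicates at each time for SRSF9 and HNRNPAB, and below them for HNRNPA1.

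Percent left was lower in the knockdown lines for nearly every member at 8 h, as it was for most genes. The core kept 28.1% (line D) and 33.5% (line E), against 51.1% and 47.1% in shNS, and the regulators kept 25.6% and 32.5%, against 46.4% and 46.1%. All genes had medians of 23.9% and 33.6%, against 42.2% and 41.1%. Both lines were below both shNS replicates for 70 of 75 members, 28 of 28 core and 25 of 28 regulators, against 82.5% of all genes. A change common to all genes and a shift of whole libraries cannot be told apart in these values, and every value of percent left uses the 0 h library of its own line.

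SRSF6 had the most negative difference among the regulators. At 0 h it stood at 131 and 118 in the shNS replicates, 180.1 for line D and 111 for line E, and at 8 h at 97.1 and 82.8 against 34.0 and 57.4. Line D kept 18.9% at 8 h and line E 51.8%, against 74.2% and 70.3% in shNS. The difference of the 8 h change was -1.19 (SE 0.39, limma adjusted p = 0.299). Both lines lay below both shNS replicates, line D by far more than line E. SF3B4 had the largest difference of the core, -1.31 (SE 0.31, limma adjusted p = 0.299), keeping 5.8% and 11.1% in the lines against 22.3% and 20.1%. HNRNPK kept 37.9% and 44.6% against 69.6% and 65.7%, and HNRNPA1 kept 47.9% and 42.8% against 75.7% and 65.4%. SRSF4, already low in shNS, kept 11.5% and 15.8%, on both sides of its shNS values.

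For the difference of the 8 h change, limma called 0 of 75 members and 0% of all genes, with 0 higher and 19 lower at an unadjusted p under 0.05, against 5 and 1555 of all 9529 genes. All 75 fitted differences were negative, as were 9221 of all genes, with medians of -0.57 in the core, -0.64 in the regulators, -0.75 in the SR class and -0.48 in all genes. With the replicate or line as a block, 33 members were called lower and 0 higher, against 26.1% and 0.105% of all genes: 11 of 28 core and 15 of 28 regulators, with 7 of 10 SR and 8 of 18 hnRNP. When the block was joined to median-of-ratios scaling, which removes a shift common to all genes, 0 members were called. Of all 9529 genes, 1 was called higher and 1 lower under this setting. The median difference was then -0.02 in the core, -0.09 in the regulators and -0.21 in the SR class, against 0.03 in all genes.

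**Figure D4:**
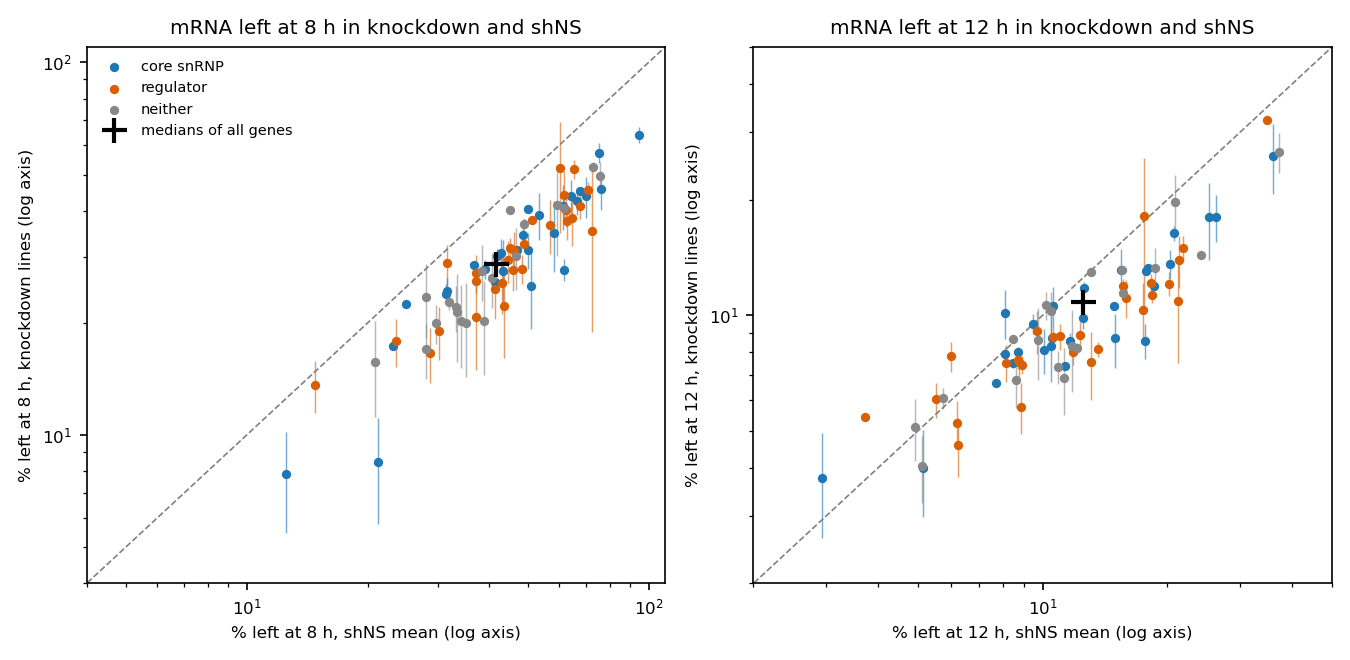
Percent of the 0 h signal left at 8 h (left) and 12 h (right) in the knockdown lines (point, mean of lines D and E; bar, their range) against the mean of the shNS replicates, both log axes. The dashed line marks equal values and the cross the medians of all genes. At 8 h the members lie along the shift shown by the cross, and at 12 h they scatter closer to the dashed line.

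At 12 h the gap was smaller. The core kept 10.2% (line D) and 9.2% (line E), against 12.0% and 12.3% in shNS, and the regulators kept 8.1% and 8.6%, against 11.7% and 12.2%. All genes kept 10.9% and 10.7%, against 11.9% and 12.9%. Both lines were below both shNS replicates for 53 of 75 members, 22 core and 21 regulators, against 41.2% of all genes. Limma called 0 of 75 members, and 0% of all genes. At an unadjusted p under 0.05, 0 members were higher and 7 lower, against 16 and 321 of all 9529 genes. The median difference of the 12 h change was -0.36 for the members and -0.19 for all genes, and with median-of-ratios scaling -0.16 and 0.01. With the block 4 members were called lower and 0 higher, against 2.19% and 0.136%. Block and median-of-ratios scaling gave 1 call in each direction, against 169 higher and 166 lower of all 9529 genes, so these were near the background.

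By level rather than percent left, the count of members below shNS at 12 h differed between core and regulators. The median differences from shNS at 12 h were 0.17 in the core and -0.06 in the regulators for line D. For line E they were -0.17 and -0.22. Both knockdown libraries were below both shNS replicates for 23 of 75 members, against 25% of all genes, made up of 5 of 28 core and 13 of 28 regulators. They were above for 19, against 33%, with 6 core and 6 regulators. The 13 regulators below were SRSF3, SRSF5, SRSF6, SRSF7, SRSF11, HNRNPA1, HNRNPA1L2, HNRNPD, HNRNPDL, HNRNPH3, HNRNPK, HNRNPL and HNRNPUL1. At 8 h the counts were 39 below and 2 above, against 42.8% and 10.4%, with 14 core and 16 regulators below. The difference between core and regulators was not tested.

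The knockdown lines were not alike. At 0 h line D exceeded shNS by a median of 0.39 in the core and 0.51 in the regulators, and line E by 0.19 and 0.21, on the log2(signal + 1) scale, while all genes had 0.30 and 0.18. At 8 h the medians were -0.21 and -0.41 for line D and -0.21 and -0.32 for line E, while all genes had -0.36 and -0.11. HNRNPM and LSM5 were the members with line D above line E by at least 1 log2 unit at all 3 times, against 0.483% of all genes, and 0 were below by as much, against 0.661%. HNRNPM, an hnRNP protein tied to exon skipping, stood at 112 and 104 in shNS at 0 h, against 302 for line D and 130.5 for line E. At 8 h it was 50.9 and 46.6 against 102 and 38.9, and at 12 h 10.9 and 9.93 against 30.9 and 10.3. Line E lay near or below shNS from 8 h on, while line D was higher throughout. LSM5 showed another layout, with line E lowest: 49.4 and 38.4 in shNS against 63.0 and 25.7 (lines D and E) at 0 h, and 7.71 and 7.56 against 5.97 and 1.98 at 12 h. With 1 library per line and time, these line differences have no replicate check.

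**Figure D5:**
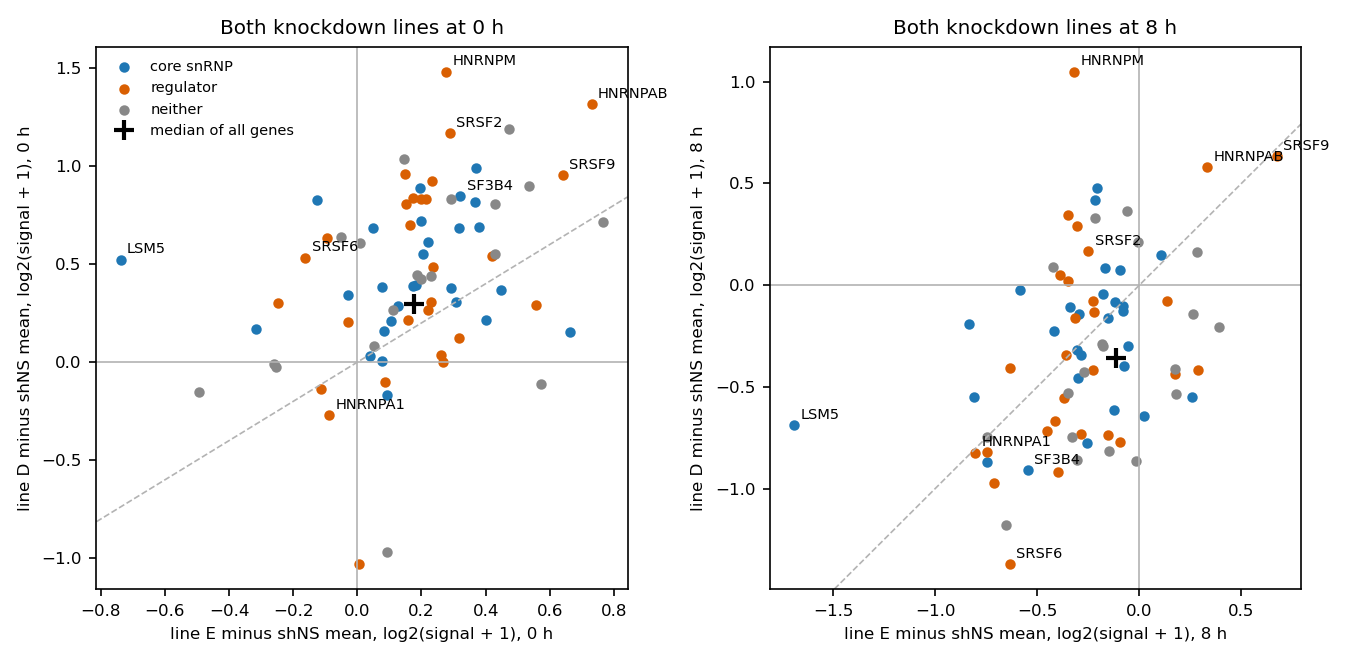
Difference from the shNS mean on the log2(signal + 1) scale in line D (vertical axis) and line E (horizontal axis) at 0 h (left) and 8 h (right), 1 point per member. The dashed line marks equal values in both lines and the cross the median of all genes. HNRNPM is higher in line D than in line E, LSM5 is lower in line E than in line D, and SRSF9 and HNRNPAB are above shNS in both.

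A wider list of 75 splicing genes outside these families, of which 73 were in the table, gave a reference for the same pathway. Their median percent left at 8 h was 36.6 and 35.8 in the shNS replicates and 19.9 and 27.2 in lines D and E, below the 45.6, 44.9, 25.9 and 32.3 of the snRNP and hnRNP set. By 8 h 13 were called higher and 20 lower relative to the median gene, against 36% and 17% of all genes, and by 12 h 9 and 21, against 38.7% and 15.8%. This list was not tested under the other scaling. At 0 h limma called 0 of them in the knockdown comparison. Over the line means 2 of the 73 were called lower, near the 2.42% of all genes: the SR protein kinase CLK1 (-0.97, SE 0.24, limma adjusted p = 0.0139) and LUC7L2, a U1-associated protein (-0.78, SE 0.24, adjusted p = 0.0494). Neither was called at 0 h.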

How the data were processed

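The authors deposited 1 table with an expression signal per gene symbol and library. No source used here states its unit or scaling. Without counts the depth of each library is unknown, so intervals for counting error could not be made. STAR, RSEM and GRCh38 are named per the submitters' processing notes, without versions. Groups follow the titles and the hairpin label of each sample. The treatment protocol in the labels instead describes a virus against FTO and a treatment with CS1 or CS2.

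Tests used log2(signal + 1) and limma 3.58.1 (trend, empirical Bayes; R 4.3.3) on a model of 6 group means over 12 libraries. Benjamini-Hochberg adjusted p under 0.05 over 9529 genes was called. A separate fit compared the means over time of the 2 shNS replicates and the 2 knockdown lines. All 75 members had a mean signal of at least 1 and were tested, and 72 had at least 5. Fold changes of low genes are understated by the pseudocount of 1. Gene and transcript features came from GENCODE 29, in which all 75 members were found. The fits were tested on simulated data with independent errors for each library. The deviations of the knockdown lines were correlated between times, so this test does not show how the fits behave with such a tie.

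Deviations from group means correlated at 0.27, 0.07 and 0.14 between times for the shNS numbers, and at 0.78, 0.66 and 0.90 for the lines. The main fit on group means tied no libraries across times. Percent left, the means over time and the replicate block tied the shNS replicates by number, as well as the lines. For shNS, whose correlations were low, that tie rests on the number in the label.

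The members and lists were chosen with earlier results of these data known. Genes were named by rule: SF3B1, SRSF2, U2AF1, PRPF8, SRSF1, SRSF3, HNRNPA1, HNRNPK, SNRPB and SNRPD1, the extremes of each class in percent left, every member called in a knockdown comparison, and members that differed between the lines. Others were named after their values were seen, to describe a class. Settings varied were the filter on low values (a mean of 5 or more, or none, which left the genes as they were), a pseudocount of 0.1, 3 other scalings, the deposited scale, no trend, a replicate block, each line alone, additive models and leaving out each library. The block with median-of-ratios scaling was chosen after seeing the data. The result of 1 further list of cell type markers is not reported here.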

Additional observations from a re-analysis of the deposited data

How the results depend on the processing

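The knockdown calls of HNRNPAB and SRSF9 kept their direction. The calls over time did not: by 8 h 25 members were higher and 6 lower, but 0 and 49 when scaled to ribosomal protein genes, 0 and 62 to the ERCC mean and 0 and 63 on the deposited scale, and by 12 h 18 and 15 became 1 and 58, 0 and 75, and 0 and 75. With the replicate block they were 44 and 10, and 25 and 26. Of all 9529 genes, the block called 4983 higher and 2276 lower by 8 h, and 5001 and 2218 by 12 h. At 0 h the uncalled SF3B1 and PRPF8 ranged from -0.10 to 0.22 and from -0.05 to 0.28. Counts over both directions follow, for members only. As the share of all genes is not set beside them, they do not tell whether the members differed from other genes. The change by 8 h gave 31 calls, against 49, 62, 63 and 54 under these settings and 18 to 35 when leaving out 1 library. The change by 12 h gave 33, against 59, 75, 75 and 51, and 17 to 39. Scaling to the spike-ins or not centring measures the fall of all RNA. The knockdown difference at 0 h gave 1 call, and 0 with a mean of at least 5, a pseudocount of 0.1, median-of-ratios, ribosomal protein or ERCC scaling, 44 with line D alone, 11 with line E alone, and 0 to 9 when leaving out 1 library, the 9 being without line E at 0 h. Over the line means there was 1 call, against 3 with a mean of at least 5, 0 with median-of-ratios or ribosomal protein scaling, 2 without trend, 17 with line D alone, 4 with line E alone, 10 in an additive model over 12 libraries, 4 with a correlation estimated within lines, and 0 to 2 when leaving out 1 library. The difference of the 8 h change gave 0, 33 with the replicate block, 57 with line D alone, 2 with line E alone and 0 to 0 when leaving out 1 library. That of the 12 h change gave 0, 4 with the replicate block, 2 with the replicate block and median-of-ratios scaling, 17 with line D alone, 2 with line E alone and 0 to 0 when leaving out 1 library. Where 1 library is left in a group, as in the fits on 1 line, its spread is taken from the other groups. HNRNPAB at 0 h passed in 9 of 21 settings (0.73 to 1.31, limma adjusted p from 3.13e-13 to 0.354), and SRSF9 over line means in 15 of 23 (0.79 to 1.19, 0.000305 to 0.149). For these shifts the cause was not tested.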
